A study of Mus musculus with 24 samples.

Results

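Cholesterol synthesis and its control were followed in mouse liver through 7 gene symbols: Srebf2, Insig1, Hmgcs1, Idi1, Sqle, Lss and Cyp51. They were chosen by symbol, as targets and partners of the sterol transcription factor SREBP2, and not by their differences between the treatment groups. Of the 7, 6 had a row among the 23240 rows of the counts table, and all 6 passed the filter on low counts that left 13773 genes. Hmgcs1 is not analysed here. None of the 7 is an LDL uptake gene. Genes of the wider pathway were read from lists beside the members.

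The 24 liver libraries came from female NSG mice, an immunodeficient strain without mature lymphocytes, with an age of 8 weeks in the labels and no other genotype given. Over 5 weeks the mice were injected 2 times a week into the tail vein, with PBS or with extracellular vesicles (EVs, the membrane particles that cells shed; near 10 µg an injection), and livers were collected 2 days after the end of dosing. The 4 groups had 6 libraries each: EVs of MDA-MB-231 cells, a human breast cancer line; EVs labelled MCF10A/miR-122, from MCF10A, a human non-tumour breast epithelial line, with the microRNA miR-122 in the group name; EVs of MCF10A itself; and phosphate-buffered saline (PBS). Library names contradict the label for 12 libraries: those in the MCF10A/miR-122 EV group carry names that point to MDA-MB-231 vesicles, and those in the MDA-MB-231 EV group carry names that point to miR-122 vesicles, 6 of each. Groups are called by their label. With the names instead, the 2 groups trade places.

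In liver, hepatocytes make cholesterol from acetyl-CoA and also take it up as LDL. When the endoplasmic reticulum is short of sterol, SREBP2 is cut free from the membrane, enters the nucleus and switches on the synthesis enzymes, genes of LDL uptake and its own gene. Sterol and INSIG proteins hold SREBP2 back, so the RNA of its targets is a common readout of sterol status, and it also moves with feeding and time of day.

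The promoters of 5 measured members are shown first, because the members vary together and their promoters show what sequence they share. They come from the 250 bases before the gene's start in RefSeq (build GRCm38.p6, not the mm9 build of the counts), each trimmed to the span that holds its motifs with up to 10 bases on either side. Capitals mark CCAAT, the box bound by NF-Y, and GGGCGG, the box bound by Sp1, both read on either strand (ATTGG and CCGCCC are the other strand).
Srebf2, chr15:82147048-82147250, plus strand: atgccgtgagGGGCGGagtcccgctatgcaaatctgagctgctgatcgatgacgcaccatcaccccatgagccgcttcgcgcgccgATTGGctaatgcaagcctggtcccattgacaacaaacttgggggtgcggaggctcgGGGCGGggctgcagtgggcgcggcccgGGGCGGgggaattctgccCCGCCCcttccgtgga
Insig1, chr5:28071173-28071301, plus strand: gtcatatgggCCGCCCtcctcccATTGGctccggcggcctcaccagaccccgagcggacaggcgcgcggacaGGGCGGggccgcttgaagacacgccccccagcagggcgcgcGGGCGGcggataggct
Idi1, chr13:8885527-8885605, plus strand: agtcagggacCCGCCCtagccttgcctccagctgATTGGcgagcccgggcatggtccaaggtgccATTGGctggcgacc
Lss, chr10:76531429-76531557, plus strand: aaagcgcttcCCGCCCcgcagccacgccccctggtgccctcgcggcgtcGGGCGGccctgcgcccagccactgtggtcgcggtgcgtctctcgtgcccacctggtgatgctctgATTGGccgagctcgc
Cyp51, chr5:4104712-4104842, minus strand: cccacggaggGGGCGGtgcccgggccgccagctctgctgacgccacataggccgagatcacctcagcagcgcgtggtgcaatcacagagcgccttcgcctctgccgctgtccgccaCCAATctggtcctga
Both boxes stood in all 5 promoters, and no CCAAT overlapped a GGGCGG in them. Srebf2 held 1 CCAAT and 4 GGGCGG, Insig1 1 and 3, Idi1 2 and 1, Lss 1 and 2, and Cyp51 1 and 1. Among 32851 RefSeq promoters of the same length, 33.8% held CCAAT and 32.7% held GGGCGG. The letters TCACNCCAC, a form of the sterol element, were in 0 of the 5 and in 1.05% of all promoters. Other forms of the element were not searched for, so 0 matches does not mean that these promoters lack one. The promoter of Hmgcs1, whose RNA is not analysed here, held 1 such match, with 3 CCAAT and 2 GGGCGG. These are matches of letters in a window and not measured sites. Of the 7 symbols, 6 had a promoter entry.

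The libraries held 21.3 to 33.7 M counts, and the members 390 to 12352 counts per library. Hepatocyte markers summed to 108052 to 153993 CPM (counts scaled to a common library size) in every library, while lymphocyte markers summed to at most 0.169 CPM. The labels do not say that each library is a separate mouse, so p-values measure the spread between libraries. In bulk liver, fewer cells of a type and less RNA per cell cannot be told apart. The MDA-MB-231 EV and MCF10A/miR-122 EV libraries stood apart from the MCF10A EV and PBS libraries as 2 sets of 12. Serpina3a, chosen after its values were seen, had 0.285 to 5.85 CPM in the first set and 109.6 to 325.4 CPM in the second. In the 4 comparisons that cross these sets, treatment and set cannot be told apart. MCF10A EV against PBS and MDA-MB-231 EV against MCF10A/miR-122 EV lie within a set. Clock genes and Kupffer cell markers also moved with the groups, and their part in the member levels was not tested.

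None of the 6 measured members differed between any pair of groups past an adjusted p of 0.05 (edgeR's quasi-likelihood test, Benjamini-Hochberg adjustment over all 13773 genes). Of all genes tested, 11.7% were called for MDA-MB-231 EV against PBS, 17.9% for MCF10A/miR-122 EV against PBS and 1.07% for MCF10A EV against PBS. Between EVs the shares were 7.68% for MDA-MB-231 EV against MCF10A EV, 16.2% for MCF10A/miR-122 EV against MCF10A EV and 0.254% for MDA-MB-231 EV against MCF10A/miR-122 EV. At these shares, 0 calls among 6 genes is no result about the members in itself. Of their 36 tests, 3 had an unadjusted edgeR p under 0.05: Srebf2 in MCF10A/miR-122 EV against PBS and against MCF10A EV, and Cyp51 in MDA-MB-231 EV against MCF10A EV. Of all 13773 genes, 4329, 4135 and 3073 had such a p in these 3 comparisons, so the count is no result about the members. DESeq2 and limma-voom each called 1 of the 36, Srebf2 in MCF10A/miR-122 EV against PBS. No member had groups without overlap in any comparison. The share of all genes without overlap was not computed, so this is no result about the members in itself. The 95% intervals of the folds lay between 0.496 and 2.59 over the 36 tests, with both ends set by Sqle.

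**Figure D1:**
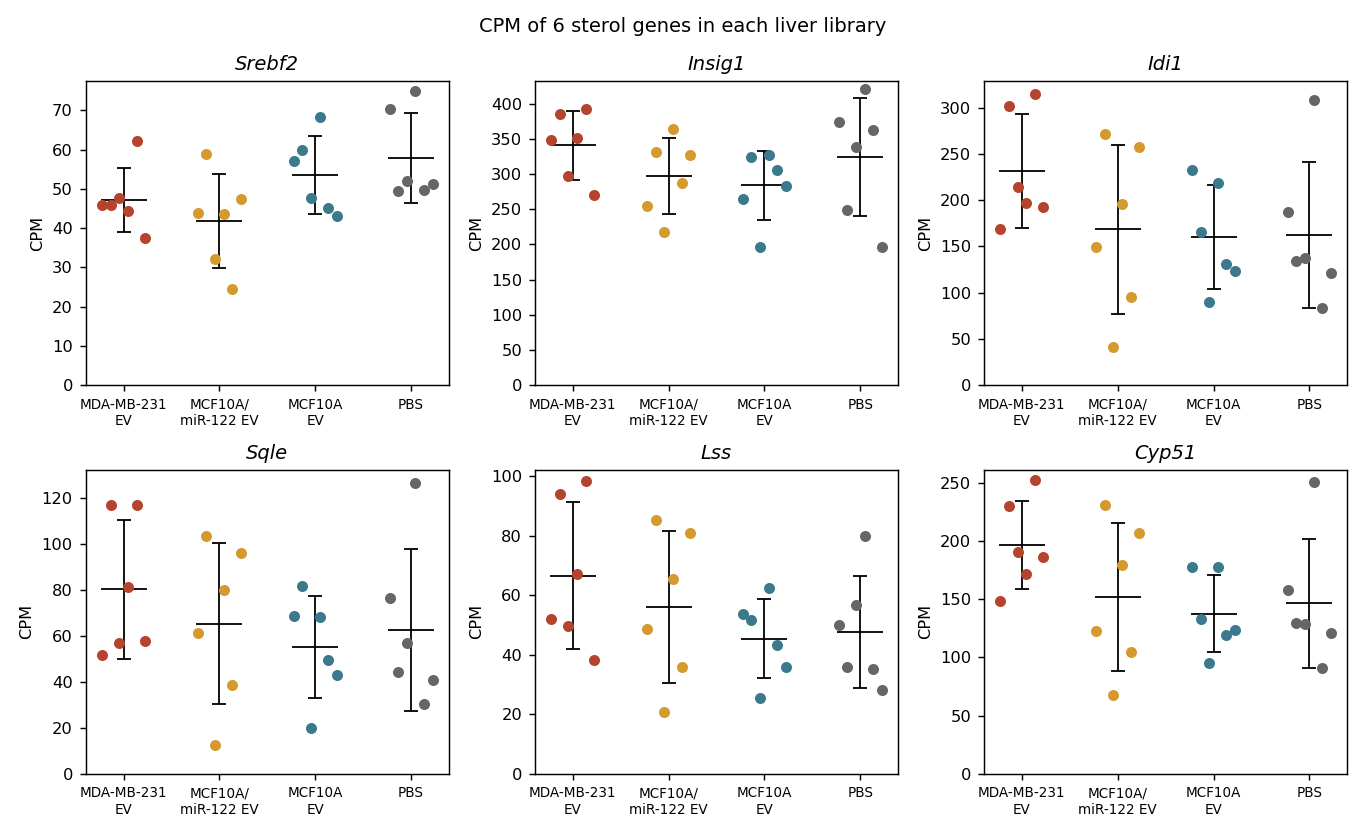
Each panel plots 1 gene, with CPM on the vertical axis from 0 and the 4 groups on the horizontal axis. Points are libraries (6 per group), the long dash is the group mean and the bar spans 1 SD on either side. In every panel the ranges of all 4 groups overlap, as for Sqle, with 51.6 to 117.2 CPM in MDA-MB-231 EV and 30.5 to 126.7 CPM in PBS.

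Srebf2 encodes SREBP2, the transcription factor that drives the rest. Its lowest, median and highest levels were 37.6, 45.8 and 62.3 CPM in MDA-MB-231 EV livers and 24.6, 43.8 and 58.8 CPM in MCF10A/miR-122 EV livers. In MCF10A EV livers they were 43.1, 52.4 and 68.3 CPM, and PBS livers 49.5, 51.6 and 74.98 CPM. Means were 47.3 ± 8.15, 41.8 ± 11.98, 53.5 ± 9.86 and 57.9 ± 11.5 CPM (SD, n = 6 each) in MDA-MB-231 EV, MCF10A/miR-122 EV, MCF10A EV and PBS. By means, PBS was thus highest and MCF10A/miR-122 EV lowest, with the ranges of all groups overlapping. By medians, MCF10A EV (52.4 CPM) stood above PBS (51.6 CPM).

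Srebf2 in MCF10A/miR-122 EV against PBS came nearest to the threshold, with a log2 fold change of -0.47 (SE 0.17, 95% interval -0.82 to -0.12) and an adjusted p of 0.0518. The levels of 5 of the 6 MCF10A/miR-122 EV libraries were below the PBS median. DESeq2 (adjusted p 0.0374) and limma-voom (adjusted p 0.0403) put it past the threshold. Over the 24 fits that left out 1 library each, the adjusted p ran between 0.0161 and 0.138 (the latter without PBS replicate 4). It passed without PBS replicate 2 or 5, MCF10A EV replicate 4, MCF10A/miR-122 EV replicate 2, or MDA-MB-231 EV replicate 5 or 6. With only the 12 libraries compared, it was 0.105. Of 10 Kupffer cell markers, 6 were called higher in the same comparison (294.4 to 694.7 CPM summed in MCF10A/miR-122 EV, against 272.5 to 338.9 CPM in PBS), and their part in the Srebf2 value was not tested. MDA-MB-231 EV livers gave a smaller difference from PBS, at -0.29 (SE 0.17, adjusted p 0.264). Against MCF10A EV the values were -0.18 (SE 0.17, adjusted p 0.575) for MDA-MB-231 EV and -0.36 (SE 0.17, adjusted p 0.153) for MCF10A/miR-122 EV. Within the sets, Srebf2 gave 0.18 (adjusted p 0.866) for MDA-MB-231 EV against MCF10A/miR-122 EV and -0.11 (adjusted p 0.759) for MCF10A EV against PBS.

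Insig1 encodes the membrane protein that holds SREBP2 in the endoplasmic reticulum when sterol is plentiful, and it is itself a target of SREBP2. Its lowest, median and highest levels were 270.2, 349.8 and 392.9 CPM in MDA-MB-231 EV livers and 218.1, 307.7 and 363.8 CPM in MCF10A/miR-122 EV livers. In MCF10A EV livers they were 196.7, 294.8 and 327.1 CPM, and PBS livers 196.8, 351.1 and 421.2 CPM. The 6 MCF10A EV libraries all stood below the PBS median, although the ranges of the 2 groups overlapped. PBS replicates 2 (249.3 CPM) and 6 (196.8 CPM) lay within the MCF10A EV range, and the other PBS libraries lay above it. The difference was -0.19 on the log2 scale (SE 0.16, adjusted p 0.561). Its largest difference, 0.26 (SE 0.16, adjusted p 0.347) in MDA-MB-231 EV against MCF10A EV, had an interval of -0.07 to 0.60.

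Idi1 encodes isopentenyl-diphosphate isomerase, which interconverts the 2 five-carbon building blocks of sterols. Levels were 168.9, 205.5 and 315.2 CPM (lowest, median, highest) in MDA-MB-231 EV livers and 40.8, 172.4 and 271.8 CPM in MCF10A/miR-122 EV livers. MCF10A EV livers had 89.9, 148.2 and 232.4 CPM, and PBS livers 83.4, 135.7 and 308.8 CPM. The 6 MDA-MB-231 EV libraries all exceeded the PBS median. The PBS range still reached almost as high as theirs through 1 library, replicate 4 at 308.8 CPM, with replicate 1 next at 187.6 CPM. The log2 difference from PBS was 0.51 (SE 0.34, adjusted p 0.351), or a fold of 1.43 with an interval of 0.868 to 2.35. Idi1 is less certain than the others, because 18.6% of the 32-base stretches of its annotated transcripts also occur in other genes, against 0.47 to 3.36% for the other 5 members. How reads of such stretches were counted is not given in the sources used here.

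Sqle encodes squalene epoxidase, a rate-controlling step of the sterol branch, and had the widest spread of the members. Its lowest, median and highest levels were 51.6, 69.4 and 117.2 CPM in MDA-MB-231 EV livers and 12.4, 70.7 and 103.6 CPM in MCF10A/miR-122 EV livers. The MCF10A EV group had 20.1, 58.9 and 81.7 CPM, and PBS livers 30.5, 50.5 and 126.7 CPM. Within MCF10A/miR-122 EV the highest library was 8.37 times the lowest, against 2.27 times in MDA-MB-231 EV, 4.06 times in MCF10A EV and 4.16 times in PBS. The means of 80.3 ± 30.3, 65.3 ± 35.1, 55.2 ± 22.2 and 62.6 ± 35.2 CPM (SD, n = 6 each) in MDA-MB-231 EV, MCF10A/miR-122 EV, MCF10A EV and PBS were closer together than the libraries within a group. The log2 difference from PBS was 0.36 (SE 0.40, adjusted p 0.598) for MDA-MB-231 EV, 0.06 (SE 0.40, adjusted p 0.937) for MCF10A/miR-122 EV and -0.18 (SE 0.40, adjusted p 0.844) for MCF10A EV.

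Lss encodes lanosterol synthase, which closes the sterol rings. Its lowest, median and highest levels were 38.3, 59.7 and 98.4 CPM in MDA-MB-231 EV livers and 20.7, 57.1 and 85.3 CPM in MCF10A/miR-122 EV livers. In MCF10A EV livers it had 25.3, 47.5 and 62.6 CPM, and PBS livers 28.2, 42.8 and 79.8 CPM. The groups overlapped, with 5 of the 6 MDA-MB-231 EV libraries above the medians of both MCF10A EV and PBS. Lss gave a log2 difference of 0.55 (SE 0.31, adjusted p 0.297) in MDA-MB-231 EV against MCF10A EV, the largest of any member in any comparison, and 0.48 (SE 0.30, adjusted p 0.317) against PBS.

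Cyp51 encodes lanosterol 14-alpha-demethylase, the enzyme after Lss. Its lowest, median and highest levels were 148.8, 188.5 and 252.2 CPM in MDA-MB-231 EV livers and 67.6, 151.0 and 231.1 CPM in MCF10A/miR-122 EV livers. MCF10A EV livers had 94.8, 128.4 and 177.7 CPM, and PBS livers 91.2, 129.3 and 250.8 CPM. Each of the 6 MDA-MB-231 EV libraries was above the MCF10A EV median and above the PBS median. The log2 difference was 0.51 (SE 0.25, interval -0.00 to 1.03, adjusted p 0.22) against MCF10A EV and 0.42 (SE 0.25, interval -0.09 to 0.94, adjusted p 0.277) against PBS. The first interval just reached 0 although the unadjusted edgeR p was under 0.05, since the interval was computed apart from the p-value. Cyp51 and Lss exons overlap an antisense gene (Akap9 and 4930483K19Rik), as do those of Idi1 (Gm48574), and the strand setting of the counting is not given in the sources used here.

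**Figure D2:**
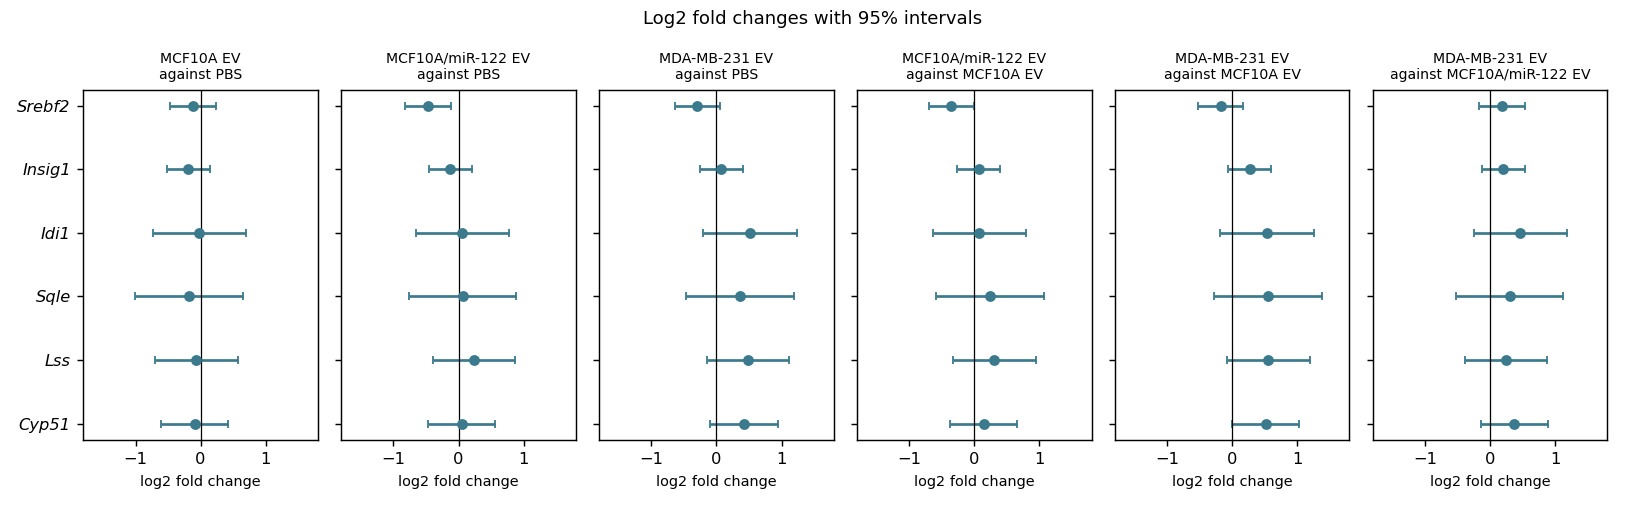
Each panel is 1 comparison, with the log2 fold change on the horizontal axis and 1 measured member per row. Points are fitted values of the edgeR fit of all 24 libraries and bars are 95% intervals, not adjusted for the number of tests. Most bars cross 0; Srebf2 in MCF10A/miR-122 EV against PBS (-0.47) lies clear of it, with an adjusted p of 0.0518.

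As a list, the members' median log2 fold change was 0.39 in MDA-MB-231 EV against PBS and 0.52 in MDA-MB-231 EV against MCF10A EV, with 5 of 6 positive in each and Srebf2 the exception. It was 0.05 in MCF10A/miR-122 EV against PBS, 0.11 in MCF10A/miR-122 EV against MCF10A EV, -0.10 in MCF10A EV against PBS and 0.27 in MDA-MB-231 EV against MCF10A/miR-122 EV. The median over all 13773 genes lay between -0.00 and 0.01 in the 6 comparisons. The members vary together from library to library, so their signs are not independent of each other, and several of these comparisons share libraries.

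What the members did show was variation among libraries of the same group. The within-group SD on the log2 CPM scale was 0.82 for Sqle, 0.69 for Idi1, 0.60 for Lss, 0.47 for Cyp51, 0.31 for Srebf2 and 0.30 for Insig1. The median over 2086 genes in the members' range of mean level was 0.16. Among those genes, the percentile of this SD was 99.5 for Sqle, 99.0 for Idi1, 98.6 for Lss, 97.3 for Cyp51, 91.0 for Srebf2 and 90.2 for Insig1. The share of the variance of log2 CPM that lay between groups was 8.43% for Sqle, 12.1% for Insig1, 12.7% for Lss, 15.4% for Idi1, 19.6% for Cyp51 and 30.5% for Srebf2. For the 2086 genes its median was 24.98%. All members but Srebf2 were thus below that median.

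**Figure D3:**
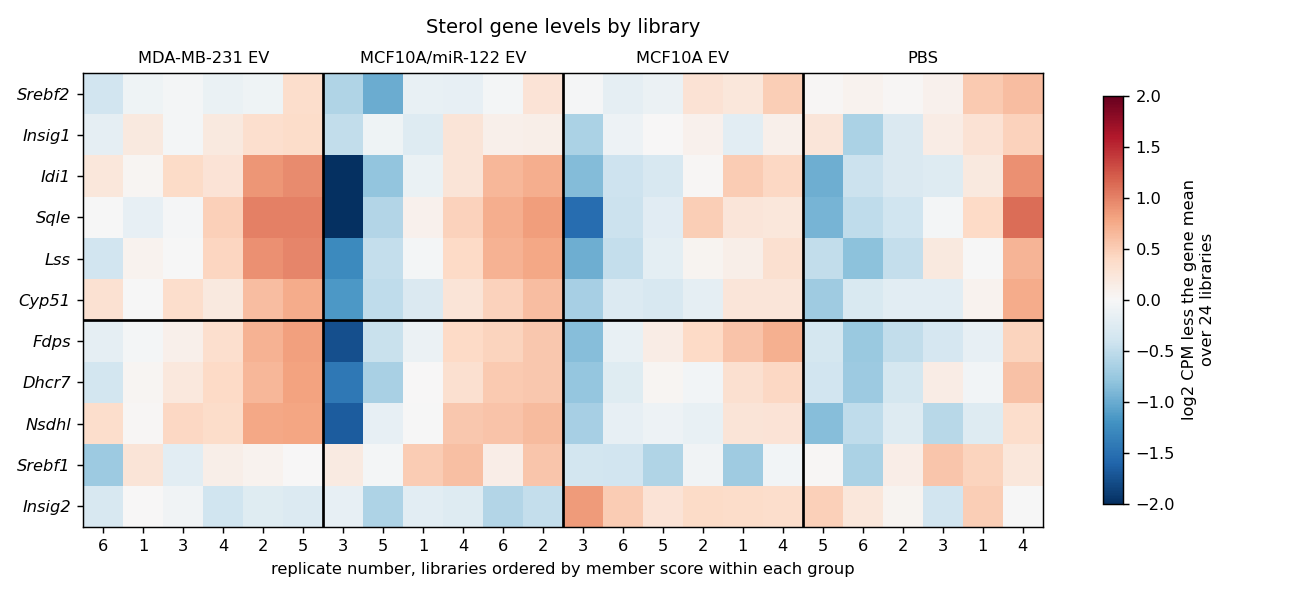
Rows are genes (the 6 measured members above the line, and Fdps, Dhcr7, Nsdhl, Srebf1 and Insig2 below) and columns are the 24 libraries, in their 4 groups and ordered within each group by the members' mean. Colour is log2 CPM less the gene's mean over all libraries, cut at 2 units either way. In each group the member rows largely change colour together. The Idi1, Sqle, Lss and Cyp51 rows are bluest in MCF10A/miR-122 EV replicate 3, while Srebf2 is bluest in replicate 5 of that group and Insig1 in MCF10A EV replicate 3, and the Insig2 row runs bluer in MDA-MB-231 EV and MCF10A/miR-122 EV than in MCF10A EV.

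The same libraries were high or low for nearly all members. A member score, the mean over the 6 genes of log2 CPM less each gene's mean over all 24 libraries, ran between -0.07 and 0.73 in MDA-MB-231 EV, -1.29 and 0.56 in MCF10A/miR-122 EV, -0.78 and 0.30 in MCF10A EV, and -0.47 and 0.76 in PBS. Replicate 5 was highest in its group for 5 of 6 members in MDA-MB-231 EV, and replicate 2 for 5 of 6 in MCF10A/miR-122 EV. PBS replicate 4 was highest for all 6. MCF10A/miR-122 EV replicate 3 was lowest for 5 of 6 members, with Sqle at 12.4 CPM and Idi1 at 40.8 CPM, and MCF10A EV replicate 3 for 5 of 6, with Sqle at 20.1 CPM. Hepatocyte markers summed to 144190 CPM in MCF10A/miR-122 EV replicate 3, second highest in its group, and to 142372 CPM in MCF10A EV replicate 3, the highest in its group. PBS replicate 4, high for the members, had 114145 CPM, the second lowest in its group. Both low libraries were highest in their group for Igfbp1, a gene induced in fasting, at 723.7 CPM in MCF10A/miR-122 EV replicate 3 (19.4 to 325.5 CPM in the other 5) and 188.4 CPM in MCF10A EV replicate 3 (22.5 to 95.4 CPM in the other 5). Igfbp1 is 1 of 11 tested genes of the fasting and feeding list. With group means removed, its Pearson r with the member score was -0.30 over the 24 libraries. Without these 2 libraries the r was 0.12. The 2 low libraries were also highest in their group for the Kupffer cell markers, at 694.7 and 308.1 CPM summed. The part of any of these in the member levels was not tested.

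Within groups, the 15 pairs of members had Pearson r of 0.515 to 0.981 over the 24 libraries, with a median of 0.773. Group means were removed first. The members were known to correlate in these libraries when they were chosen and all points share library scaling, so r is a description. Without the 2 libraries farthest from the median score (MCF10A/miR-122 EV replicate 3 and MCF10A EV replicate 3) the median was 0.783. Taken group by group, the median over the 15 pairs was 0.729 in MDA-MB-231 EV, 0.863 in MCF10A/miR-122 EV, 0.807 in MCF10A EV and 0.811 in PBS. Idi1 with Cyp51 was the closest pair (0.981) and Srebf2 with Insig1 the loosest (0.515). Against the mean of the other 5 members, r was 0.958 for Sqle, 0.956 for Idi1, 0.953 for Lss and 0.937 for Cyp51, against 0.766 for Srebf2 and 0.690 for Insig1. The 4 enzymes thus tracked one another more closely than the regulator and its retention protein did. The member score had an r of 0.10 with the total count of the library.

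By group medians, Srebf2 also sat lower relative to the other members in 1 of the 2 sets of libraries. Its log2 CPM, less the mean of the other 5 members and each centred over all libraries, had a median of -0.41 in MDA-MB-231 EV (-0.84 to -0.12), -0.42 in MCF10A/miR-122 EV (-0.57 to 0.83), 0.18 in MCF10A EV (0.05 to 0.90) and 0.34 in PBS (-0.17 to 0.61). All 6 MDA-MB-231 EV libraries were below all 6 MCF10A EV libraries on this scale. This scale was looked at after the values of Srebf2 and of the others were seen, so no test is given. It subtracts the other 5 members of the score, so it is not independent of the score. MCF10A/miR-122 EV replicate 3 and MCF10A EV replicate 3, both low in score, had 0.83 and 0.90. PBS replicate 4, highest in score (0.76), had -0.17. MCF10A/miR-122 EV replicate 5, also low in score (-0.57), had -0.50.

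Of the wider synthesis list, 16 other enzymes of the pathway are reported here, all of them tested. None of the 16 was called in any comparison by edgeR. An unadjusted edgeR p under 0.05 was found for 4 in MDA-MB-231 EV against PBS and 4 in MDA-MB-231 EV against MCF10A EV. It was found for 1 in MDA-MB-231 EV against MCF10A/miR-122 EV. Of all 13773 genes, 3711, 3073 and 1128 had such a p in these comparisons, so the counts are no result about the list. All 16 had a positive log2 fold change in these 3 comparisons, with medians of 0.30, 0.24 and 0.31. The signs are not independent of each other, since these genes vary together like the members.

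The value nearest the threshold was that of Nsdhl, a C4-demethylation enzyme, with 86.0, 110.6 and 145.9 CPM (lowest, median, highest) in MDA-MB-231 EV livers and 46.9, 64.8 and 107.7 CPM in PBS livers. Its log2 fold change was 0.78 (SE 0.26, adjusted p 0.0516), and the groups overlapped. It was chosen for this after its values were seen. DESeq2 called it, as did the fit with only the 12 libraries compared. That fit also called Hsd17b7, a 3-ketosteroid reductase of the pathway, 0610007P14Rik and Nsdhl in MDA-MB-231 EV against MCF10A EV. Fdps, which makes farnesyl diphosphate, averaged 189.9 ± 54.2, 152.2 ± 67.3, 175.7 ± 60.4 and 128.9 ± 40.0 CPM in MDA-MB-231 EV, MCF10A/miR-122 EV, MCF10A EV and PBS (SD, n = 6 each). Dhcr7, the reductase of a late step to cholesterol, averaged 111.9 ± 31.7, 90.3 ± 39.0, 88.2 ± 24.1 and 83.98 ± 28.0 CPM in the same order of groups. For both, the ranges of all 4 groups overlapped.

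Of 9 tested genes of LDL uptake and intracellular sterol transfer reported here, 1 was called, higher in each comparison of MDA-MB-231 EV and MCF10A/miR-122 EV with MCF10A EV. Of all genes, 7.68% and 16.2% were called there, so the count is no result about the list. The called gene was Npc1, which moves cholesterol out of lysosomes. It had 146.3 ± 16.6 CPM in MDA-MB-231 EV and 140.7 ± 13.0 CPM in MCF10A/miR-122 EV, against 109.0 ± 14.8 CPM in MCF10A EV (SD, n = 6 each). PBS livers had 134.6 ± 30.0 CPM, and neither group was called against PBS. The log2 fold changes were 0.42 (SE 0.12, adjusted p 0.0343) and 0.37 (SE 0.12, adjusted p 0.0422). These calls were fragile: they were lost in 9 and 10 of the 24 fits that left out 1 library. Npc1 exons also overlap antisense genes.

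Among the 10 genes of SREBP processing and sterol sensing, Insig2 and Srebf1 had the clearest differences. Insig2, the second retention protein, which is not an SREBP2 target, had 218.0 to 287.1 CPM in MDA-MB-231 EV, 187.0 to 255.5 CPM in MCF10A/miR-122 EV, 345.1 to 515.6 CPM in MCF10A EV and 220.3 to 403.1 CPM in PBS. It fell by 0.68 (SE 0.13, adjusted p 0.00143) in MDA-MB-231 EV and by 0.84 (SE 0.13, adjusted p 7.11e-05) in MCF10A/miR-122 EV against MCF10A EV on the log2 scale, without overlap. Against PBS it fell by 0.55 (SE 0.13, adjusted p 0.00436) in MCF10A/miR-122 EV. All 3 calls held in each of the 24 fits that left out 1 library. They all cross the 2 sets of libraries. In MCF10A/miR-122 EV against MCF10A EV, 8 of 10 Kupffer cell markers were called higher (294.4 to 694.7 CPM summed, against 257.4 to 308.1 CPM), and of 17 tested clock genes 11 were called higher and 4 lower. The part of either in the Insig2 difference was not tested.

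Srebf1, the gene of the fatty-acid factor SREBP1, averaged 245.8 ± 44.9 CPM in MCF10A/miR-122 EV and 152.7 ± 28.2 CPM in MCF10A EV (SD, n = 6 each). It rose by 0.69 on the log2 scale (SE 0.17, adjusted p 0.00816). PBS livers averaged 218.6 ± 56.4 CPM; against PBS the log2 differences were 0.17 (SE 0.17, adjusted p 0.532) for MCF10A/miR-122 EV and -0.52 (SE 0.17, adjusted p 0.134) for MCF10A EV. Srebf1 was not called against PBS in any EV group, and its exons overlap the antisense gene Rai1. Pgrmc1, a heme-binding membrane protein that binds the SREBP escort and INSIG, was called higher in MDA-MB-231 EV against MCF10A EV (log2 0.25, SE 0.08, adjusted p 0.0487), and 11 of 24 left-out libraries ended that call.

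Of 10 genes of the LXR and efflux list, 2 were called, both higher, in MCF10A/miR-122 EV against PBS and 3, all higher, against MCF10A EV, beside 17.9% and 16.2% of all genes, so the counts are no result about the list. Abcg5 and Abcg8 encode the 2 subunits of the pump that sends sterol into bile. Abcg5 had 177.0 to 260.8 CPM in MCF10A/miR-122 EV, 67.8 to 149.8 CPM in MCF10A EV and 104.5 to 143.7 CPM in PBS. Its log2 fold change was 0.71 (SE 0.13, adjusted p 0.000729) against PBS and 0.84 (SE 0.13, adjusted p 0.00012) against MCF10A EV, and neither pair of groups overlapped. Abcg8 gave 0.91 (SE 0.18, adjusted p 0.00123) and 0.92 (SE 0.18, adjusted p 0.00108). The exons of these 2 genes overlap on opposite strands, so their reads are not independent here. The third was Abcg1, a cholesterol exporter, with 0.53 (SE 0.14, adjusted p 0.0139) against MCF10A EV. The Kupffer cell markers named above moved in both of these comparisons, and their part in the efflux genes was not tested.

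The fatty acid synthesis list had 15 genes. Thrsp, a lipogenic protein, was called higher in all 4 comparisons that cross the sets, at 422.4 ± 206.9 CPM in MDA-MB-231 EV and 555.0 ± 161.4 CPM in MCF10A/miR-122 EV, against 142.5 ± 64.0 CPM in MCF10A EV and 134.6 ± 64.0 CPM in PBS (SD, n = 6 each). Acaca, the acetyl-CoA carboxylase, rose by 0.38 (SE 0.11, adjusted p 0.0159) in MCF10A/miR-122 EV against PBS on the log2 scale, a call that ended without MCF10A/miR-122 EV replicate 6; 33.2% of the 32-base stretches of its transcripts also occur in other genes. Elovl5, a fatty acid elongase, fell by 0.37 against PBS (SE 0.08, adjusted p 0.00222) and by 0.47 against MCF10A EV (SE 0.08, adjusted p 0.000265) in MCF10A/miR-122 EV.

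Within groups, the genes most like the member score were nearly all of the same pathway. Over 10193 genes with a mean log2 CPM of at least 1, the highest Pearson r were those of Fdps (0.962), Dhcr7 (0.960), Sc4mol (0.957), Rdh11 (0.930), Mvk (0.929), Nsdhl (0.920), Sc5d (0.913), Mvd (0.910), Mmab (0.910) and Pmvk (0.906). Of these 10, 8 are listed synthesis enzymes; Rdh11 is a retinol dehydrogenase and Mmab a cobalamin adenosyltransferase. Of Fdps transcripts, 27.9% of the 32-base stretches also occur in other genes. Fdft1, the squalene synthase, stood at 0.900. The lowest r were those of Trappc6b (-0.79), Mknk1 (-0.77) and Dleu2 (-0.72). Across the 10193 genes, the median r was -0.03, and 75 were above 0.7.

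By list, the median r with the member score was 0.903 over the 16 other synthesis genes, of which 12 were above 0.7. Ggps1 (-0.29), which makes the isoprenoid used for protein prenylation, was the one with a negative value. The fatty acid synthesis list had a median of 0.629, led by Acss2 (0.820), Fasn (0.801) and Acly (0.767). SREBP processing (0.0908) and LXR and efflux genes (-0.155) lay lower, with Insig2 at -0.39 and Abcg5 at -0.41. Without the 2 libraries farthest from the median score, Insig2 stood at -0.20 and Abcg5 at -0.09. Clock genes had a median of -0.01. The 11 tested genes of the fasting and feeding list had a median of -0.31, with Angptl4 (-0.59) and Fgf21 (-0.48) the lowest. Without the same 2 libraries these 2 stood at -0.49 and -0.44. Igfbp1 (0.12), Irs2 (0.28), G6pc (0.07), Cpt1a (0.02) and Tat (0.02) were then above 0, and the rest of the list stayed negative. All 10 Kupffer cell markers were negative (median -0.42). These values describe 24 libraries that share scaling, with no test.

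**Figure D4:**
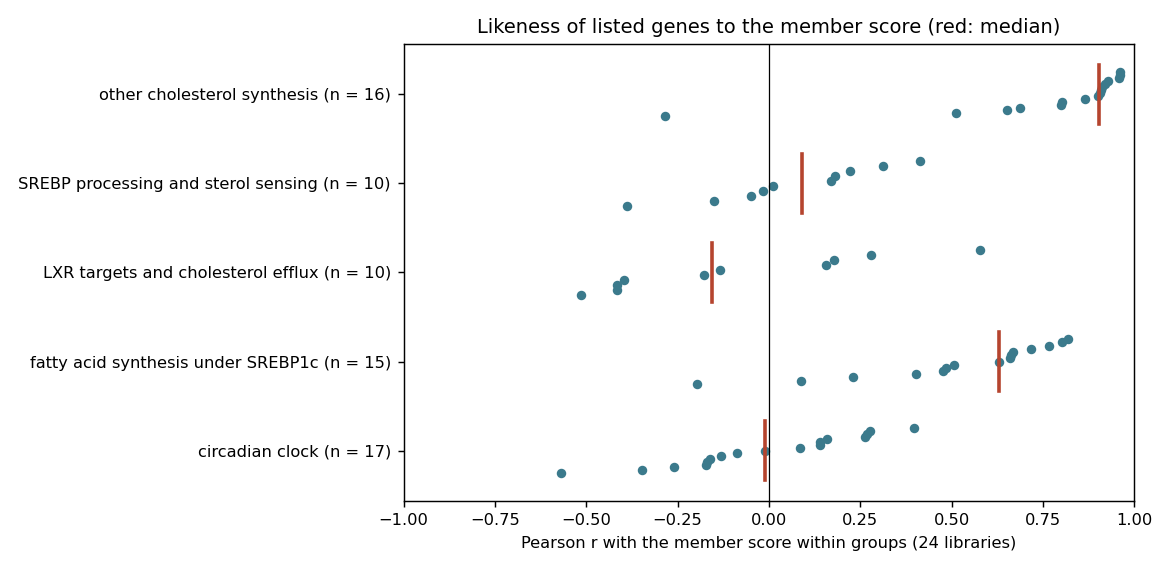
The horizontal axis is Pearson r between a gene's log2 CPM and the member score within groups over 24 libraries, and each row is a gene list with 1 point per gene. Red lines are medians. The other synthesis genes have a median of 0.903, with Ggps1 the lone negative point at -0.29, and the clock genes spread to both sides of 0 around a median of -0.01.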

How the data were processed

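A set of 24 stranded mRNA libraries of mouse liver was sequenced, per the labels' protocols. Whole-number counts per gene, without normalization, were deposited by the authors; the submitters' processing notes name bcl2fastq 2.18.0.12, TopHat2 and mm9, and no source used here gives the counting tool, the annotation or the strand setting. Of 23240 rows, 27 rows of 11 repeated symbols (0.0744% of counts) were left out. edgeR 4.0.16 (R 4.3.3; TMM scaling, filterByExpr by group, quasi-likelihood F test) was fitted to all 24 libraries with group as the only term, and p-values were adjusted by Benjamini-Hochberg over 13773 genes, with a threshold of 0.05. The common biological variation was 16.8%. SEs and 95% intervals came from the F statistic and 20 residual degrees of freedom. The p-values came from the edgeR test itself, so an interval and its p-value can differ slightly. CPM use TMM library sizes. The fit was tested on simulated data. Alternatives were RLE size factors, DESeq2 1.42.0, limma-voom (limma 3.58.1), no or a strict low-count filter (20 counts in 6 libraries), the 12 libraries compared, a replicate block, library-name identities and each library left out. The members and gene lists were chosen with earlier results of these data known. Some listed genes are not reported here and stay out of the list counts and the ranking by likeness. Genes named are the members; up to 3 called genes per comparison with the smallest p from each list that is no marker list (clock, fasting and feeding genes are given in part); and the 10 genes most and 3 least like the member score, predicted loci left out. Nsdhl, Serpina3a, Hsd17b7, 0610007P14Rik, the levels of Fdps and Dhcr7, and the genes named as examples of r within a list were added after their values were seen. Replicate numbers did not clearly pair the libraries.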

Additional observations from a re-analysis of the deposited data

How the results depend on the processing

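None of the 6 measured members was called in any comparison by edgeR with RLE size factors, with either low-count filter, with only the 12 libraries compared or with library-name identities. In MCF10A/miR-122 EV against PBS, 1 member (Srebf2) was called by DESeq2, by limma-voom and with the replicate block, and 0 to 1 when 1 library was left out. Numbers did not clearly pair the libraries: same-numbered libraries correlated at -0.507 to 0.477, and 11 of 36 correlated best with their own number. The median r of same-numbered libraries was 0.174 between MCF10A/miR-122 EV and MCF10A EV, against -0.076 for other numbers. Between MDA-MB-231 EV and MCF10A/miR-122 EV it was -0.045, against -0.002. A partial pairing is thus not excluded. Small log2 differences changed sign. With limma-voom Idi1 was 0.032 in MCF10A EV against PBS, Idi1 was -0.074 and Sqle -0.063 in MCF10A/miR-122 EV against PBS, and Idi1 was -0.11 in MCF10A/miR-122 EV against MCF10A EV. With the replicate block Sqle was -0.0597 and Idi1 -0.00564 in MCF10A/miR-122 EV against PBS. The cause of these changes was not tested.

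Of the 16 other synthesis genes reported here, 1 was called with DESeq2, 2 with only the 12 libraries and 1 with the replicate block in MDA-MB-231 EV against PBS, and 3 with only the 12 libraries in MDA-MB-231 EV against MCF10A EV. Leaving out 1 library gave 0 to 2 in MDA-MB-231 EV against PBS and 0 to 1 in MCF10A/miR-122 EV against PBS. Over all genes, MCF10A EV against PBS had 414 calls with DESeq2, 27 with only the 12 libraries and 26 to 741 without 1 library (741 without PBS replicate 5). MDA-MB-231 EV against MCF10A/miR-122 EV had 98, 23 and 13 to 82.

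Library-name identities exchange the 2 EV groups, so their values follow from that exchange. Genes called became 1607 in MCF10A/miR-122 EV against PBS, 2463 in MDA-MB-231 EV against PBS, 1058 in MCF10A/miR-122 EV against MCF10A EV and 2237 in MDA-MB-231 EV against MCF10A EV. Insig1 became 0.0738 in MCF10A/miR-122 EV against PBS and -0.12 in MDA-MB-231 EV against PBS. In MDA-MB-231 EV against MCF10A/miR-122 EV the log2 values became -0.18 for Srebf2, -0.30 for Sqle, -0.46 for Idi1, -0.37 for Cyp51, -0.24 for Lss and -0.20 for Insig1.

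Leaving out 1 library moved some uncalled log2 differences across 0. In MCF10A EV against PBS the ranges were -0.33 to 0.13 for Sqle, -0.16 to 0.25 for Idi1, -0.20 to 0.12 for Cyp51 and -0.20 to 0.13 for Lss, each highest without PBS replicate 4. In MCF10A/miR-122 EV against PBS they were -0.13 to 0.39 for Sqle, -0.14 to 0.34 for Idi1 and -0.11 to 0.27 for Cyp51. In MDA-MB-231 EV against PBS the range was -0.043 to 0.16 for Insig1. There Sqle (0.22 to 0.68), Idi1 (0.38 to 0.79), Cyp51 (0.32 to 0.63) and Lss (0.34 to 0.68) stayed positive, though uncalled. In MCF10A/miR-122 EV against MCF10A EV the ranges were -0.11 to 0.29 for Idi1, -0.0064 to 0.31 for Cyp51 and -0.0115 to 0.15 for Insig1. No measured member changed sign in MDA-MB-231 EV against MCF10A EV or against MCF10A/miR-122 EV, and none was called there. Every measured member had at least 390 counts in each library, and each group had 6 libraries.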

Other observations

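Clock genes, the transcription loop that sets daily rhythm, moved in the comparisons that cross the 2 sets of libraries. Of 17 tested, 11 were called higher and 2 lower in MDA-MB-231 EV against MCF10A EV, and 11 higher and 4 lower in MCF10A/miR-122 EV against MCF10A EV. Against PBS, 4 were called higher and 2 lower in MDA-MB-231 EV, and 6 higher and 2 lower in MCF10A/miR-122 EV. Arntl, the core activator, had 2.23 to 4.61 CPM in MDA-MB-231 EV and 1.33 to 3.71 CPM in MCF10A/miR-122 EV, against 13.0 to 30.2 CPM in MCF10A EV and 4.79 to 29.6 CPM in PBS. Dbp, an output gene of the loop, had 79.7 to 127.5 CPM in MDA-MB-231 EV and 71.7 to 148.7 CPM in MCF10A/miR-122 EV, against 2.20 to 23.9 CPM in MCF10A EV and 3.57 to 118.5 CPM in PBS. Within the sets, 0 higher and 0 lower were called in MDA-MB-231 EV against MCF10A/miR-122 EV and 0 higher and 4 lower in MCF10A EV against PBS. Angptl4, a lipase inhibitor that rises in fasting, was higher in all 3 EV groups than in PBS, at 241.0 ± 40.5, 218.5 ± 52.0 and 203.3 ± 56.7 CPM in MDA-MB-231 EV, MCF10A/miR-122 EV and MCF10A EV, against 114.3 ± 29.0 CPM in PBS (SD, n = 6 each). Its call in MCF10A EV against PBS (log2 0.83, SE 0.18, edgeR adjusted p 0.0268) ended in 7 of the 24 fits that left out 1 library. That call also ended with only the 12 libraries compared (edgeR adjusted p 0.0736).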
